A study of Mus musculus with 6 samples.

Results

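The Notch pathway genes Notch1, Notch2, Notch3, Notch4, Jag1, Jag2, Dll1, Dll4, Hes1 and Hey1 were followed in the lungs of Zpbp2 knockout (KO) and wild type (WT) mice. They were taken by gene symbol and make up 10 of the 41388 genes in the count table. All 10 were found and all 10 passed the filter on low counts. RNA was sequenced from whole lungs of adult mice collected at ZT7, that is 7 h after lights on, with 3 libraries of C57BL/6J mice (WT1 to WT3) and 3 of mice lacking exons 1 to 3 of Zpbp2 on a C57BL/6J background (strain B6.129S7-Zpbp2tmZuk/Mmjax, KO1 to KO3). Both genotypes were kept in 1 colony, no mouse was treated, and the exact age was not given in the sources used here. The deletion is present in every cell type of the KO mice, and the KO mice came from a line of 129S7 origin, so that the deletion and other differences between the lines cannot be told apart.

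Notch signaling passes between touching cells. A ligand of the Jagged (Jag) or Delta-like (Dll) family on one cell binds a Notch receptor on its neighbour, the receptor is cut first by the ADAM10 protease and then by gamma-secretase, and the freed intracellular part joins the DNA-binding protein RBPJ in the nucleus and switches on transcriptional repressors of the Hes and Hey families. In the lung this pathway is known for the choice between secretory and ciliated cells in the airway, for arterial endothelium and the sprouting of vessels, and for the smooth muscle cells and pericytes that wrap them. Hes proteins also repress their own genes, and Hes1 is known to answer to signals other than Notch.

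The promoters illustrate 2 sequence features of the pathway, the core of the RBPJ site (TGGGAA, or TTCCCA on the other strand) and the class C site bound by Hes and Hey repressors (CACGCG, or CGCGTG on the other strand). Both strands of the 250 bases before each RefSeq start site (GRCm38.p6) were searched, and the ends of the motifs can overlap each other. The RefSeq table used here held 8 of the 10 genes, with 9 start sites, and Hes1 and Hey1 were not among them. CACGCG was present in 4 of these 9 windows, at 1 start site each of Dll4, Notch2, Jag1 and Dll1. It was present in 7.6% of all 32851 windows and in 19.7% of the 9178 windows with at least 60% G and C, a class that held 6 of the 9 windows. TGGGAA was found in 0 of the 9 windows, compared with 21.6% of all windows and 15.9% of those rich in G and C. The E-box CACGTG, another sequence bound by proteins of this class, was found in 0 of the 9 windows and in 6.0% of all windows. Of the other Notch pathway genes, 54 were in the table and 18 of them held TGGGAA, among them Hes5, at 2 positions, Hey2 and Hes7. These were 3 of the 5 further target genes in the table, and Hes6 and Nrarp did not hold it. Given 5′ to 3′ on the strand of the gene are the bases from 250 to 21 before the start of Dll4 (chr2:119325534-119325763, + strand) and Notch2 (chr3:98013288-98013517, + strand), the ligand and the receptor that passed in edgeR when KO2 and KO3 were kept separate, and of Hes5 (chr4:154960673-154960902, + strand) and Hey2 (chr10:30842804-30843033, - strand), which were picked to show the RBPJ core. Capitals mark the class C motif in the first pair and the RBPJ core in the second pair.
Dll4: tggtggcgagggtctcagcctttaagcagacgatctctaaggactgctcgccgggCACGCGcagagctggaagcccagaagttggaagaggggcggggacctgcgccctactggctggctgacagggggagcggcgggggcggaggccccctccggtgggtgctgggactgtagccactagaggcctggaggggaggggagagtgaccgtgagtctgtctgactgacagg
Notch2: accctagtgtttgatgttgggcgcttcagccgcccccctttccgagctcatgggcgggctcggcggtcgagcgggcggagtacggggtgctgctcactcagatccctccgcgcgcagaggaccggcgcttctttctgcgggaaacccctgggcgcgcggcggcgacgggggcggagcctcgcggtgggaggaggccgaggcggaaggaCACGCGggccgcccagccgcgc
Hes5: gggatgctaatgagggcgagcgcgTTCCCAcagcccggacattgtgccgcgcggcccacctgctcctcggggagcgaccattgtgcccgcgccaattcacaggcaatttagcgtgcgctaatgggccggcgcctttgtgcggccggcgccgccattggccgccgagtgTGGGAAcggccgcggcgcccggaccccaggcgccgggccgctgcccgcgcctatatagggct
Hey2: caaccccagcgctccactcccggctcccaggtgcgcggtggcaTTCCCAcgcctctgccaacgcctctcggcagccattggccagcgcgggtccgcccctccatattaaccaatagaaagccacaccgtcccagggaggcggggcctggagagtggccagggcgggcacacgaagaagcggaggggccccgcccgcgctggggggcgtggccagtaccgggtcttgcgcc
The class C motif began 195 bases before the start of Dll4 and 42 bases before that of Notch2. A match is a description of the sequence, and binding was not measured in these lungs.

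The libraries held 59134950 to 71354388 counts over 23070 to 23711 detected genes, so that 3 counts corresponded to 0.0410 to 0.0514 CPM, that is counts per 1e6 of the TMM-scaled library size. Zpbp2 had 20, 15 and 7 counts in WT1 to WT3 and 1, 0 and 0 counts in KO1 to KO3. KO2 and KO3 differed by little more than counting noise, with a variance 1.71 to 1.93 times that of counting alone for genes with 20 to 20000 counts, whereas the other pairs of a genotype reached 8.85 to 21.8 times in genes of 2000 to 20000 counts. They were treated as a single sample, giving n = 3 for WT and n = 2 for KO. WT3 and KO1 stood apart by a summed CPM of 15 squamous epithelium genes of 4967 and 9443, against 46.1 to 50.1 in the other 4 libraries. The lung was present in every library, with 8 alveolar type 2 markers (21224 to 22288 CPM in WT, 30141 to 31933 in KO) and 15 endothelial markers (6679 to 7283 CPM in WT, 6869 to 8224 in KO), and no gene of either list was at 0 in all libraries. In whole tissue, fewer cells of a type and less RNA per cell cannot be told apart.

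Hes1 was the member that changed. Its RNA was higher in KO lungs by 2.10-fold, and it was the only one of the 10 genes to pass an adjusted p of 0.05 in edgeR's quasi-likelihood test. Among the receptors, Notch1, Notch2 and Notch3 had lower estimates in KO and Notch4 a higher one. All 4 ligands and Hey1 had higher estimates, from 0.02 for Jag1 to 0.31 for Dll4 on the log2 scale. With all 6 libraries kept separate, Notch2 (lower) and Dll4 (higher) passed as well, but not once length and GC were also offset in that fit (edgeR adjusted p = 0.0831 and 0.0795). The fit of 6 separate libraries counts KO2 and KO3 as independent samples, although they differed by little more than counting noise. Its p-values, wherever given, are therefore likely too small.

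Across the table, 1.38% of the 18660 tested genes were called higher in KO and 0.906% were called lower, against 1 of 10 and 0 of 10 members. With the 6 libraries kept separate these shares were 9.81% and 9.07%, against 2 and 1 of the 10. At an unadjusted p of at most 0.05, 4 of the 10 members were counted (Notch2, Notch3, Dll4 and Hes1), beside 27.3% of all tested genes. DESeq2 called the same 4 genes, 2 higher and 2 lower, against 11.0% and 10.5% of all genes. Every KO library lay below every WT library for 3 members (Notch1, Notch2 and Notch3), a pattern found in 20.7% of tested genes, and above for 2 (Dll4 and Hes1), a pattern found in 20.0%. Thus the share of members that separated by library was near that of the whole table. The median log2 fold change of the members was 0.18, and that of all tested genes was 0.02. The median of the members was 0.06 without KO1 and 0.23 without the merged KO2 and KO3 sample.

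**Figure D1:**
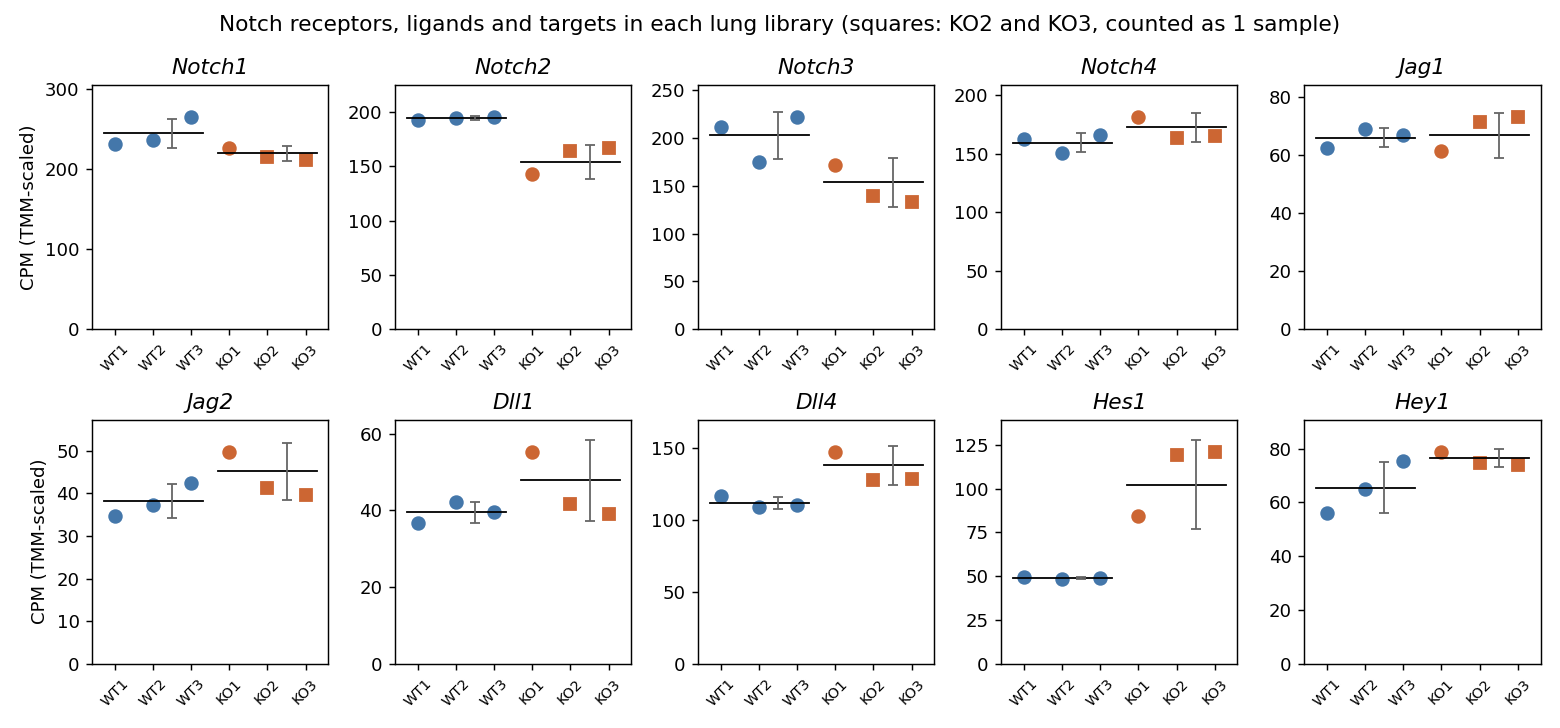
Expression of the 10 genes in each library, in CPM on a linear axis from 0, for WT (blue) and KO (orange) lungs; lines are means and bars are SD over 3 WT samples and 2 KO samples, with KO2 and KO3 (squares) averaged into 1 sample. The Hes1 panel shows the WT libraries between 48.5 and 49.3 CPM and the KO libraries between 84.3 and 121 CPM.

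The receptors were considered first. Notch1 (ENSMUSG00000026923, chr2:26457903-26516663, - strand) is the best studied receptor of the family and acts in endothelium among many cell types. It was at 232, 237 and 266 CPM in WT1 to WT3 and at 226, 215 and 212 CPM in KO1 to KO3. All KO libraries lay below the WT libraries, but the gap between WT1 and KO1 was smaller than the spread of the WT libraries. WT averaged 245 ± 18.3 CPM (mean ± SD, n = 3) and KO averaged 220 ± 9.16 CPM (n = 2), for a log2 fold change of -0.15 (SE 0.08, 95% interval -0.35 to 0.05, edgeR adjusted p = 0.290). It was -0.09 without WT3. Notch1 thus did not pass the test.

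Notch2 (ENSMUSG00000027878, chr3:98013527-98150361, + strand) is a receptor with a known part in the secretory cells of the airway. Its level was nearly the same in the WT libraries, at 192, 195 and 196 CPM, and was 143, 164 and 166 CPM in KO1 to KO3. The genotypes did not overlap, and KO1 was the lowest. WT averaged 194 ± 1.71 CPM (mean ± SD, n = 3) and KO averaged 154 ± 15.9 CPM (n = 2), for a log2 fold change of -0.33 (SE 0.08, 95% interval -0.53 to -0.13) that missed the threshold in edgeR (adjusted p = 0.0799). Keeping 6 separate libraries gave -0.30, which passed (edgeR adjusted p = 0.0280), as did DESeq2 (adjusted p = 0.00104).

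Notch3 (ENSMUSG00000038146, chr17:32120820-32166852, - strand) is the receptor typical of vascular smooth muscle and pericytes. It was at 212, 175 and 222 CPM in WT1 to WT3 and at 172, 139 and 133 CPM in KO1 to KO3. The genotypes did not overlap, although WT2 was only slightly above KO1. WT averaged 203 ± 24.8 CPM (mean ± SD, n = 3) and KO averaged 154 ± 25.6 CPM (n = 2), and the log2 fold change of -0.40 (SE 0.15, 95% interval -0.77 to -0.02) did not pass in edgeR (adjusted p = 0.171, or 0.0554 with the 6 libraries separate). The 12 smooth muscle and pericyte markers summed to 2185, 1765 and 2417 CPM in WT1 to WT3 and to 2646, 1796 and 1795 CPM in KO1 to KO3. That sum was as low in WT2 as in KO2 and KO3, and 0 of the 12 genes were called in edgeR (1 at an unadjusted p under 0.05, and 1 in DESeq2). Without the merged KO2 and KO3 sample the Notch3 estimate was -0.24. Within a library, the ratio of Notch3 counts to each of the 12 markers was also formed, after the values were seen. It was lower in every KO library than in every WT library for 8 markers, among them Acta2, Myh11 and Pdgfrb. The ratio overlapped for 4 (Des, Cspg4, Rgs5 and Postn) and was higher for 0. Of these 4, Rgs5 itself was at 36.3 to 41.1 CPM in WT and at 34.1, 11.6 and 12.7 CPM in KO1 to KO3. Des was highest in KO1, at 664 CPM. The Notch3 change thus did not stand apart from every marker.

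Notch4 (ENSMUSG00000015468, chr17:34564268-34588503, + strand) is a receptor found mainly in endothelium. It was at 162, 151 and 166 CPM in WT1 to WT3 and at 181, 163 and 165 CPM in KO1 to KO3. KO1 was the highest library, while KO2 and KO3 lay within the WT range. WT averaged 159 ± 7.83 CPM (mean ± SD, n = 3) and KO averaged 173 ± 12.4 CPM (n = 2), with a log2 fold change of 0.12 (SE 0.07, 95% interval -0.06 to 0.30, edgeR adjusted p = 0.351). It was 0.04 without KO1 and 0.19 without the merged KO2 and KO3 sample.

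The make-up of the receptor counts was then compared within each library, which needs no scaling between libraries. Notch4 took 20.3%, 19.9% and 19.5% of all Notch receptor counts in WT1 to WT3 and 25.1%, 23.9% and 24.4% in KO1 to KO3. Its share was higher in every KO library than in every WT library, averaging 19.9% ± 0.407 (mean ± SD, n = 3) in WT and 24.6% ± 0.672 (n = 2) in KO. Notch3 took 26.5%, 23.1% and 26.2% in WT and 23.8%, 20.4% and 19.7% in KO, so that its shares overlapped between KO1 and WT2. The share of Notch1 differed little, at 30.5% ± 1.28 (mean ± SD, n = 3) in WT and 31.4% ± 0.0981 (n = 2) in KO. Notch2 took 19.7% in KO1 but 24.0% and 24.6% in KO2 and KO3, within the 23.0% to 25.7% of WT. The 4 receptors together came to 798, 757 and 849 CPM in WT1 to WT3 and to 723, 681 and 675 CPM in KO1 to KO3, lower in every KO library. Over the same libraries 10 cardiomyocyte markers summed to 3230 to 7840 CPM in WT and 1436 to 2063 CPM in KO, with 10 lower estimates, 0 calls in edgeR, 7 at an unadjusted p under 0.05 and 4 calls in DESeq2. The 12 adipocyte markers summed to 1358 to 2046 CPM in WT and to 403 to 480 CPM in KO. The part of these lists in the receptor values was not tested. The shares are given as descriptions and were not tested.

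**Figure D2:**
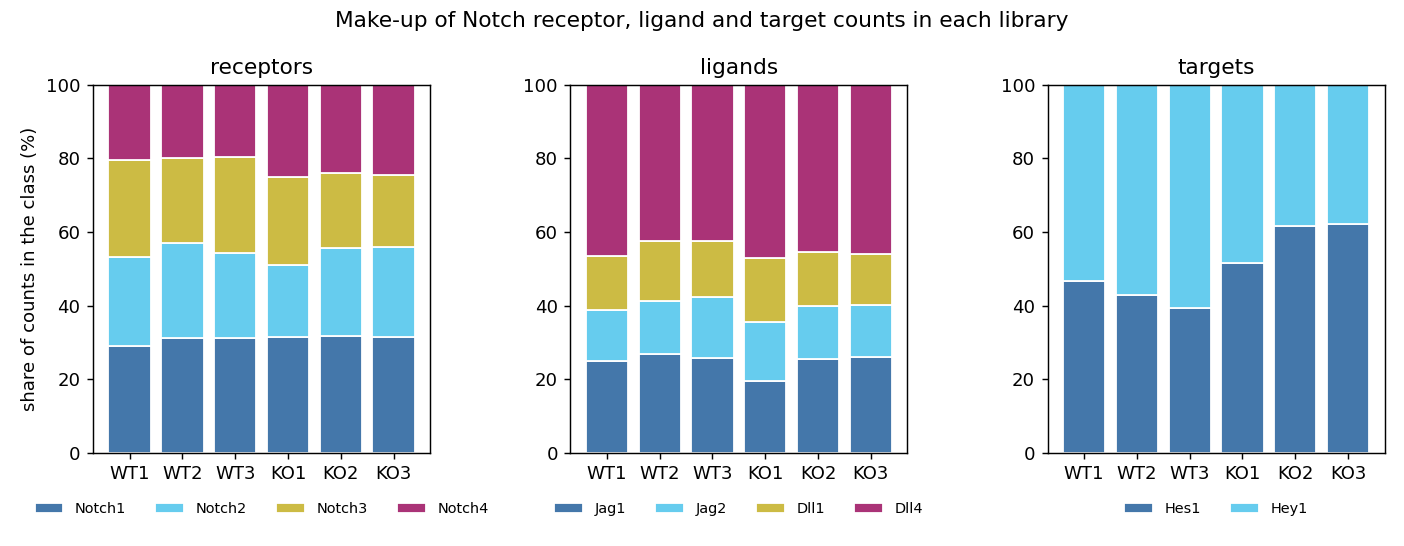
Stacked bars of the share of counts (%, from 0 to 100) that each gene takes among the 4 receptors, the 4 ligands and the 2 targets in each library. The top segment of the receptor bars, Notch4, is 19.5% to 20.3% in WT and 23.9% to 25.1% in KO, and Hes1 is the lower segment of the target bars.

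The ligands were considered next. Dll4 (ENSMUSG00000027314, chr2:119325784-119335962, + strand) is the ligand of arterial endothelium and of sprouting tip cells. It was at 117, 109 and 110 CPM in WT1 to WT3 and at 148, 128 and 129 CPM in KO1 to KO3. The KO libraries were all above the WT libraries, and KO1 was the highest. WT averaged 112 ± 4.04 CPM (mean ± SD, n = 3) and KO averaged 138 ± 13.6 CPM (n = 2), for a log2 fold change of 0.31 (SE 0.08, 95% interval 0.11 to 0.50) that missed the threshold in edgeR (adjusted p = 0.0842). Keeping 6 separate libraries gave 0.27, which passed (edgeR adjusted p = 0.0421), as did DESeq2 (adjusted p = 0.00609). Without KO1 the estimate was 0.20.

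Endothelial markers were set beside Dll4 and Notch4. Of 15 endothelial markers, 9 had higher and 6 had lower estimates in KO, with a median log2 fold change of 0.08. In edgeR 0 of them were called, 7 had an unadjusted p under 0.05, and DESeq2 called 6 higher. Their sum was 7179, 6679 and 7283 CPM in WT1 to WT3 and 8224, 6869 and 6876 CPM in KO1 to KO3, and was thus highest in KO1. The 8 arterial markers summed to 794 to 851 CPM in WT and 730 to 829 CPM in KO. Within a library, the ratio of Dll4 counts to each of the 15 endothelial markers was higher in every KO library than in every WT library for 9 markers, among them Cdh5 and Pecam1, lower for 2 (Ramp2 and Egfl7) and overlapped for 4. The same ratios of Notch4 were higher for 5 markers, lower for 6 and overlapped for 4, so that the direction of Notch4 relative to endothelium depended on the marker. Those of Notch1 were lower for 9, overlapped for 6 and were higher for 0. All of these ratios were formed after the values were seen.

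Jag1 (ENSMUSG00000027276, chr2:137081456-137116644, - strand), a ligand used by endothelium and smooth muscle, was at 62.5, 69.1 and 66.9 CPM in WT1 to WT3 and at 61.5, 71.7 and 73.3 CPM in KO1 to KO3. The KO libraries held both the lowest and the highest values. WT averaged 66.2 ± 3.34 CPM (mean ± SD, n = 3) and KO averaged 67.0 ± 7.77 CPM (n = 2), and the log2 fold change of 0.02 had a 95% interval of -0.21 to 0.25 (edgeR adjusted p = 0.894).

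Jag2 (ENSMUSG00000002799, chr12:112907819-112929776, - strand), a ligand of airway epithelium among other tissues, was at 34.6, 37.2 and 42.5 CPM in WT1 to WT3 and at 49.8, 41.3 and 39.6 CPM in KO1 to KO3. KO1 was the highest and the other libraries overlapped. The log2 fold change was 0.25 (SE 0.12, 95% interval -0.07 to 0.56, edgeR adjusted p = 0.269). It was 0.08 without KO1 and 0.38 without the merged KO2 and KO3 sample.

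Dll1 (ENSMUSG00000014773, chr17:15367354-15376872, - strand), a ligand known from many developing tissues, was at 36.8, 42.1 and 39.5 CPM in WT1 to WT3 and at 55.3, 41.7 and 39.1 CPM in KO1 to KO3. Only KO1 lay outside the range of WT. The log2 fold change was 0.28 (SE 0.14, 95% interval -0.08 to 0.64, edgeR adjusted p = 0.272). It was 0.03 without KO1 and 0.49 without the merged KO2 and KO3 sample. Together the 4 ligands came to 251, 258 and 259 CPM in WT1 to WT3 and to 314, 283 and 281 CPM in KO1 to KO3, higher in every KO library. Dll4 took 42.4% to 46.6% of these counts in WT and 45.3% to 47.0% in KO, which overlapped.

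The targets were Hes1 and Hey1. Hes1 (ENSMUSG00000022528, chr16:30064384-30067796, + strand) encodes a transcriptional repressor that holds cells in an undifferentiated or secretory state. It had 3609, 3410 and 2937 counts in WT1 to WT3 and 5308, 7390 and 7078 counts in KO1 to KO3. In CPM the levels were 49.3, 48.5 and 49.0 in WT and 84.3, 119 and 121 in KO. The WT libraries were almost equal, every KO library was above them, and KO1 lay about midway between WT and the other KO libraries. WT averaged 48.9 ± 0.378 CPM (mean ± SD, n = 3) and KO averaged 102 ± 25.4 CPM (n = 2). The log2 fold change was 1.07 (SE 0.15, 95% interval 0.68 to 1.46), the edgeR adjusted p was 0.0474, and 323 genes of the table had a p as small or smaller, Hes1 included. Keeping 6 separate libraries gave 1.14 (edgeR adjusted p = 0.00760).

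The Hes1 call sat close to the threshold. The estimate stayed between 0.78 and 1.29 on the log2 scale over 18 alternative settings. The edgeR adjusted p, however, was 0.0519 when libraries were scaled by their total alone and 0.0835 with an offset for transcript length and GC. It was 0.174, 0.189 and 0.123 without WT1, WT2 or WT3. The estimate was 1.29 without KO1 and 0.78 without the merged KO2 and KO3 sample. Those fits leave 1 KO sample and hold no spread between KO samples.

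Immediate early genes, which rise within minutes of a stimulus or of handling, were set beside Hes1. The 18 genes of this list summed to 2355, 1819 and 2327 CPM in WT1 to WT3 and to 3317, 5360 and 5353 CPM in KO1 to KO3, the same order of KO1 below KO2 and KO3 as for Hes1. Of these genes 17 had higher estimates in KO, 0 were called in edgeR (10 at an unadjusted p under 0.05, and 10 in DESeq2), and the median log2 fold change was 1.06. Every KO library was above every WT library for 11 of the 18, and 9 of these also had KO1 below KO2 and KO3. The exceptions to that order of KO libraries were Ier3, Klf2, Klf4 and Myc, which had their highest KO level in KO1. Fos, for example, was at 22.3 to 60.1 CPM in WT and at 113, 349 and 355 CPM in KO1 to KO3. The 6 markers of club cells, the main secretory cells of the airway, summed to 29184 to 34232 CPM in WT. In KO1 to KO3 their sum was 38907, 51334 and 51147 CPM, again with KO1 between WT and the other KO libraries. Most of this sum was Scgb1a1, and only Scgb1a1, Cyp2f2 and Hp followed that order. KO1 lay within the WT range for Scgb3a2, Cckar and Aldh1a1. The sum of 8 alveolar type 1 markers had the same order (5790 to 6275 CPM in WT, and 6578, 7081 and 7049 CPM in KO1 to KO3), but only Ager, Hopx, Pdpn and Aqp5 followed it, and 4 of the 8 estimates were lower in KO. The sum of 8 hepatocyte markers, most of it Trf, was 77.9 to 82.7 CPM in WT and 88.5, 141 and 144 CPM in KO1 to KO3. The median log2 fold change of the 7 hepatocyte markers tested was 3.67, with Alb at 0.967 to 1.27 CPM in WT and at 3.06, 24.0 and 25.0 CPM in KO1 to KO3. The 7 ciliated cell markers were at 2130 to 2470 CPM in WT and at 2017, 2820 and 2757 CPM in KO1 to KO3. Called higher in edgeR were 3 of the 8 alveolar type 1, 3 of the 8 alveolar type 2, 1 of the 7 ciliated and 0 of the 6 club markers. In these 4 lists 0 markers were called lower. The 7 erythroid markers were at 2400 to 5523 CPM in WT and at 3967, 18997 and 19742 CPM in KO1 to KO3. The part of these lists in the Hes1 result was not tested.

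**Figure D3:**
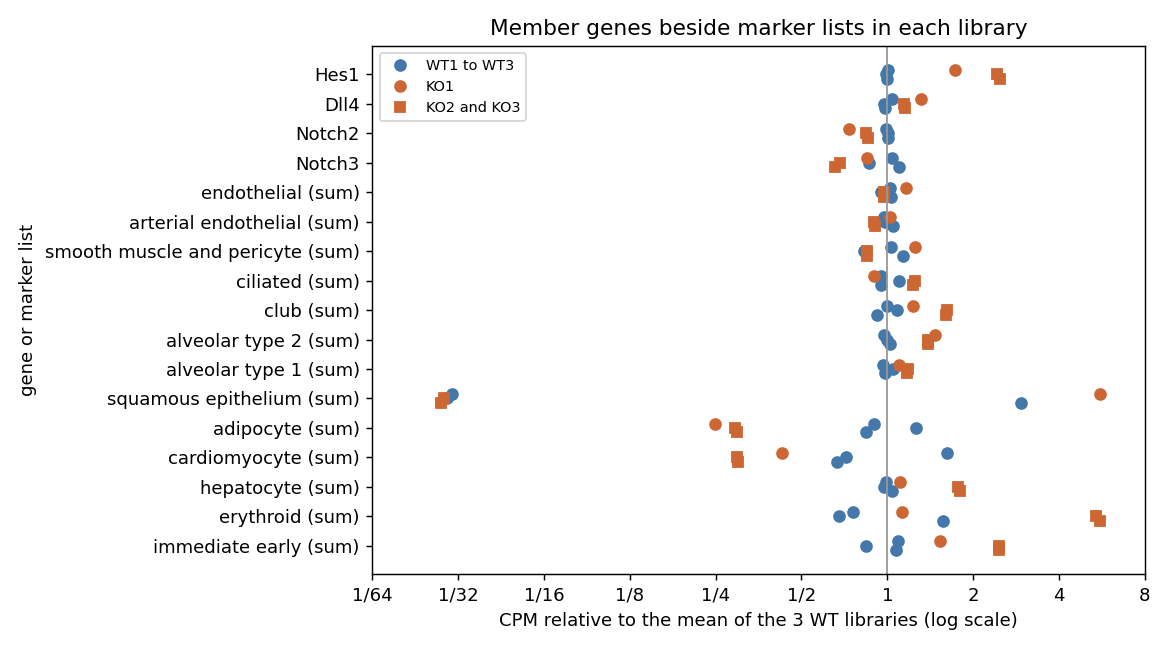
Levels of Hes1, Dll4, Notch2 and Notch3 and sums of 13 marker lists in each library, relative to the mean of the 3 WT libraries on a log axis, with WT in blue, KO in orange and KO2 and KO3 as squares. Hes1 and the sums of the club, alveolar type 1, hepatocyte and immediate early lists share the order of WT, KO1 and then KO2 and KO3, whereas the squamous list is high in WT3 and KO1.

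Hey1 (ENSMUSG00000040289, chr3:8663359-8667256, - strand), a repressor that is induced by Notch in endothelium, was at 56.1, 64.9 and 75.2 CPM in WT1 to WT3 and at 78.9, 74.5 and 73.9 CPM in KO1 to KO3. KO2 and KO3 were below WT3, so the genotypes overlapped. WT averaged 65.4 ± 9.55 CPM (mean ± SD, n = 3) and KO averaged 76.6 ± 3.30 CPM (n = 2), with a log2 fold change of 0.23 (SE 0.13, 95% interval -0.09 to 0.55, edgeR adjusted p = 0.305). It was 0.13 without WT1. Hes1 took 46.7%, 42.8% and 39.4% of the counts of these 2 targets in WT1 to WT3 and 51.6%, 61.5% and 62.1% in KO1 to KO3. The share of Hes1 was higher in every KO library than in any WT library.

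Since WT3 and KO1 carried squamous RNA, the members were also compared within WT3 and KO1 and within the other 4 libraries. KO was above WT in both comparisons for 5 members (Notch4, Jag2, Dll4, Hes1 and Hey1), a pattern found in 27.5% of tested genes. KO was below WT in both for 3 members (Notch1, Notch2 and Notch3), a pattern found in 27.0% of tested genes. Jag1 and Dll1 did neither. The mean log2 CPM of the squamous genes was also used as a covariate. In that fit Notch2 (log2 fold change -0.32, edgeR adjusted p = 0.0434), Notch3 (-0.45, edgeR adjusted p = 0.0399) and Hes1 (1.10, edgeR adjusted p = 0.0208) passed, and Dll4 did not (0.29, edgeR adjusted p = 0.0571).

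Estimates were also set beside transcript length. Over 18516 tested genes with a known exon length, the Spearman correlation of the log2 fold change with exon length was -0.33 across genes, which are not independent, and the 2706 genes with at least 8 kb of exons had a median log2 fold change of -0.16. All 4 receptors are in this class, with 8061 bp (Notch4) to 14232 bp (Notch1) of merged exons. With an offset for length and GC content, Notch1 stood at 0.01, so that its sign turned. The offset estimate was -0.20 for Notch2 (edgeR adjusted p = 0.155), -0.38 for Notch3 (edgeR adjusted p = 0.187) and 0.11 for Notch4. For Dll4, with 3852 bp of exons, it was 0.22 (edgeR adjusted p = 0.152), and for Hes1, with 2037 bp, it was 0.93 (edgeR adjusted p = 0.0835). The offset changes length and GC content together, and their separate parts were not tested.

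**Figure D4:**
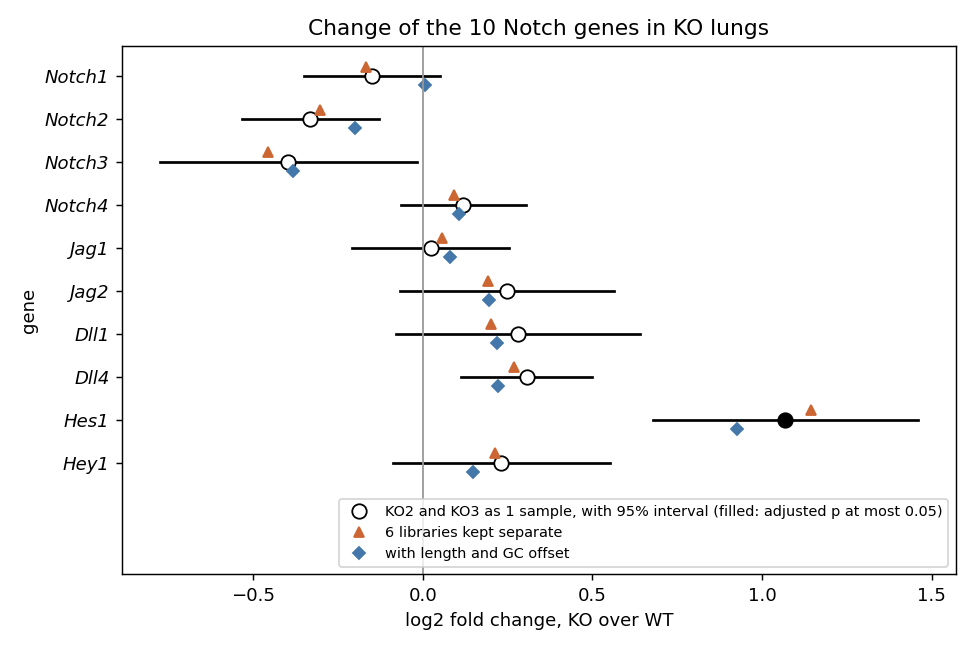
Log2 fold change (KO over WT) of each member with KO2 and KO3 as 1 sample (circles with 95% intervals, filled at an adjusted p of at most 0.05), with the 6 libraries separate (triangles) and with a length and GC offset (diamonds). Hes1 at 1.07 is the only filled circle, and the diamond of Notch1 lies at 0.01 while its circle lies at -0.15.

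Levels of different genes were compared only per length, as CPM per kb of the longest protein-coding transcript (GENCODE M21). On this scale the WT order was Hes1 (33.3 ± 0.258), Dll4 (29.9 ± 1.08), Hey1 (27.0 ± 3.94), Notch1 (25.8 ± 1.93), Notch3 (25.3 ± 3.09), Notch4 (24.2 ± 1.19), Notch2 (18.5 ± 0.163), Jag1 (11.8 ± 0.595), Dll1 (11.0 ± 0.751) and Jag2 (7.46 ± 0.788), each a mean ± SD over 3 libraries. The neighbours from Dll4 to Notch4 and the pair of Jag1 and Dll1 did not differ beyond their spread. In KO the level of Hes1 was 69.6 ± 17.3 (SD, n = 2) and that of Dll4 was 36.9 ± 3.62 (SD, n = 2). The order depends on the length used. Per kb of merged exons, Dll4 (29.1) and Notch3 (25.1) stood above Hes1 (24.0) in WT, and Notch1 was at 17.2. Exons overlap a gene on the opposite strand over 1389 bp in Notch1, 488 bp in Notch3, 867 bp in Dll1 and 214 bp in Dll4, and a gene on the same strand over 541 bp in Notch2. The use of strand in counting was not stated, so these counts may include reads of the other genes, and the part of such reads was not tested.

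The rest of the pathway was described with 66 further genes, of which 63 were tested. Higher in KO was 1 gene (Hes6), lower were 2 (Spen and Dtx3l), and the median log2 fold change was -0.04, against shares of 1.38% and 0.906% called over all genes. With the 6 libraries separate 4 were higher and 14 lower, against 9.81% and 9.07% of all genes. Once length and GC were also offset in that fit, 2 were higher and 6 lower, beside 1135 and 1049 of all 18014 tested genes. The offset with KO2 and KO3 as 1 sample left 0 of the 63 called, and 6 genes over the whole table. Every KO library was above every WT library for 11 of the 63 genes and below for 22. Over all tested genes those patterns made up 20.0% and 20.7%. At an unadjusted p of at most 0.05, 8 of the 63 pathway genes were higher and 16 lower, against 13.9% and 13.4% of all tested genes.

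Among the 8 further targets, 6 were tested, of which 4 had higher and 2 had lower estimates. Hes6, a relative of Hes1 that opposes its repression, was at 29.3, 31.3 and 30.0 CPM in WT1 to WT3 and at 41.5, 44.8 and 44.9 CPM in KO1 to KO3. The genotypes did not overlap, and the log2 fold change was 0.52 (SE 0.06, edgeR adjusted p = 0.0446), or 0.24 (edgeR adjusted p = 0.221) once length and GC were offset. Nrarp, a target that limits Notch activity, was at 52.2, 54.4 and 54.7 CPM in WT and at 80.1, 59.1 and 61.9 CPM in KO1 to KO3. KO1 was the highest, as for Dll4 and Dll1, and the log2 fold change of 0.39 did not pass (edgeR adjusted p = 0.121) and was 0.17 without KO1. Heyl, a target found in smooth muscle and pericytes, was at 63.3, 54.8 and 63.1 CPM in WT and at 51.8, 46.5 and 47.1 CPM in KO. Like Notch3 it was low in WT2 among the WT libraries, and its log2 fold change was -0.29 (edgeR adjusted p = 0.125, or 0.0338 with the 6 libraries separate). Hey2, a target of arterial cells, was at 3.736 to 5.108 CPM in WT and 3.508 to 3.997 CPM in KO, which overlapped (log2 fold change -0.23, edgeR adjusted p = 0.479, and -0.08 without WT1). Hes5, whose promoter holds the RBPJ core at 2 positions, was at 0.0546 to 0.0834 CPM in WT and 0.0161 to 0.0476 CPM in KO and was not tested.

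In the nuclear complex, 18 genes were tested, with 6 higher and 12 lower estimates. Rbpj, the DNA-binding partner of every Notch receptor, was at 26.4, 28.3 and 26.5 CPM in WT1 to WT3 and at 26.5, 26.2 and 25.4 CPM in KO1 to KO3. The genotypes overlapped, and the log2 fold change of -0.04 had a 95% interval of -0.20 to 0.11 (edgeR adjusted p = 0.681). Its direction turned with the offset for length and GC, to 0.20 (edgeR adjusted p = 0.179). Spen, a very large co-repressor that joins RBPJ when no receptor fragment is present, was at 125, 130 and 144 CPM in WT and at 83.0, 85.8 and 85.6 CPM in KO1 to KO3. It fell by 0.65 on the log2 scale (SE 0.08, edgeR adjusted p = 0.0446), while the offset for length and GC gave -0.51 (edgeR adjusted p = 0.0803).

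Of the 10 protease genes, 0 were called in edgeR with KO2 and KO3 as 1 sample, 3 had an unadjusted p under 0.05, and 1 was called in DESeq2 and with the 6 libraries separate. Adam10, the protease of the first cut, was at 110, 112 and 113 CPM in WT1 to WT3 and at 93.4, 96.2 and 93.7 CPM in KO1 to KO3. Both genotypes were tight and did not overlap, and the log2 fold change was -0.24 (SE 0.04, edgeR adjusted p = 0.0579, or 0.0125 with the 6 libraries separate).

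The 7 sugar transferases, which tune how receptors answer each ligand, gave 0 calls in edgeR with KO2 and KO3 as 1 sample, 2 genes at an unadjusted p under 0.05 and 2 calls in DESeq2. With the 6 libraries separate edgeR called Rfng higher and Pofut1 lower. The group holds the Fringe enzymes Lfng, Mfng and Rfng. Lfng was at 51.7 to 58.6 CPM in WT and 50.4 to 54.7 CPM in KO (log2 fold change -0.04, edgeR adjusted p = 0.747), or -0.24 once length and GC were offset (edgeR adjusted p = 0.226). Mfng, Rfng and Pofut1 are named after their values were seen. Pofut1, which adds the fucose that Fringe enzymes extend, had a log2 fold change of -0.18 (edgeR adjusted p = 0.0836, or 0.0223 with the 6 libraries separate). With the offset for length and GC it shrank to -0.05 (edgeR adjusted p = 0.604). Mfng was at 50.1 to 53.8 CPM in WT and 51.5 to 56.1 CPM in KO (log2 fold change 0.04, edgeR adjusted p = 0.703), and its sign turned with the offset, to -0.13. Rfng was at 32.4, 33.4 and 35.9 CPM in WT and at 43.3, 42.9 and 43.0 CPM in KO1 to KO3, without overlap, and its log2 fold change of 0.35 narrowly missed the threshold in edgeR (adjusted p = 0.0523, or 0.0102 with the 6 libraries separate, and 4.01e-05 in DESeq2). Once length and GC were offset it was 0.15 (edgeR adjusted p = 0.222). Of the 12 genes of turnover and inhibition, Dtx3l, a ubiquitin ligase of the Deltex family, was at 54.6, 55.5 and 56.9 CPM in WT and at 40.3, 43.5 and 43.7 CPM in KO. It fell by 0.40 on the log2 scale (SE 0.06, edgeR adjusted p = 0.0474), and the offset for length and GC gave -0.33 (edgeR adjusted p = 0.0803). Dlk1, a non-canonical ligand known as an inhibitor of fat cell formation, was at 0.437, 0.285 and 0.617 CPM in WT and at 0.206, 0.113 and 0.0685 CPM in KO. Its log2 fold change was -1.62 (edgeR adjusted p = 0.135, or 0.0471 with the 6 libraries separate). Of the 12 adipocyte markers, 12 had lower estimates and 4 were called lower in edgeR, and none was at 0 in every library. Whether adipocyte content had a part in the Dlk1 values was not tested. The 4 ligand-activating ubiquitin ligases gave 0 calls in edgeR and in DESeq2, and 0 at an unadjusted p under 0.05.

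**Figure D5:**
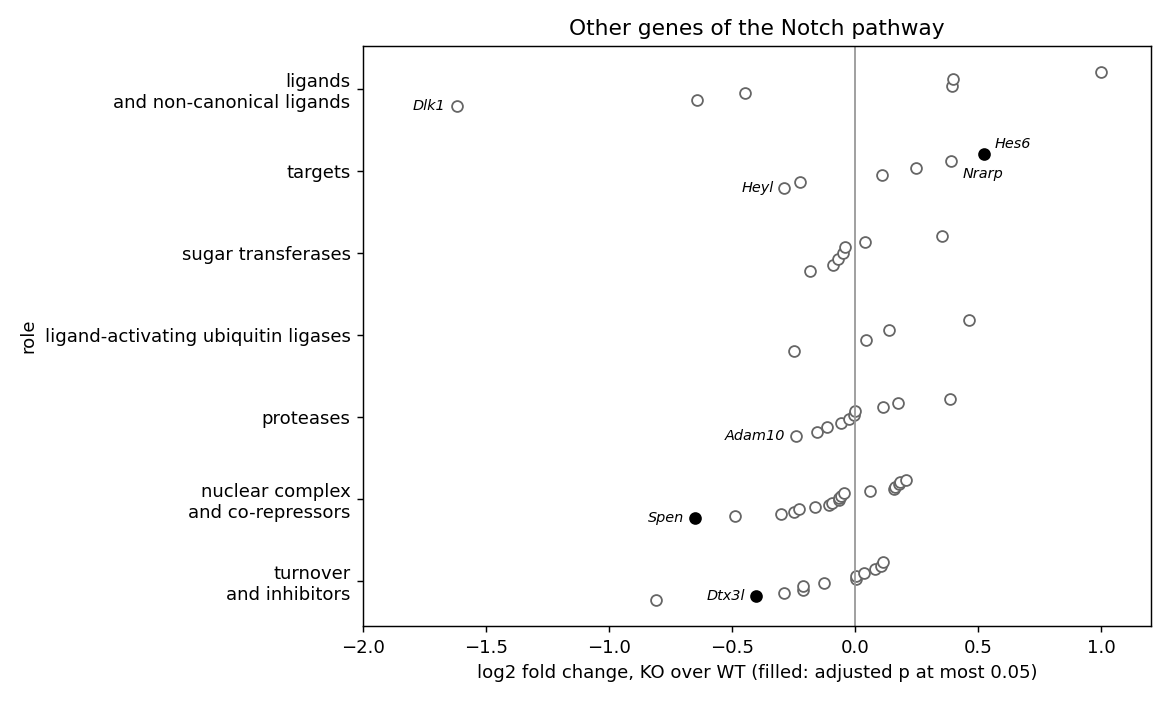
Log2 fold change (KO over WT) of the 63 tested genes of the rest of the Notch pathway, arranged by role, with genes at an adjusted p of at most 0.05 filled. Hes6 at 0.52 is filled to the right of 0, and Spen at -0.65 and Dtx3l at -0.40 are filled to the left.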

How the data were processed

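Lung RNA of 3 WT and 3 KO mice, grouped by the sample labels, was sequenced by the authors, who trimmed the reads, aligned them to GRCm38 (mm10) and deposited raw counts per gene. The submitters' processing notes name Trimmomatic 0.36, STAR 2.5.3a, Picard 2.9.0 and HTSeq 0.6.0. The annotation release and the use of strand were not given in the sources used here. The table held 41388 genes and 0 rows without a gene name, and 97.3% of its gene identifiers were in GENCODE M21, which gave positions and lengths.

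The counts were tested with edgeR 4.0.16 in R 4.3.3 (filterByExpr, TMM scaling, quasi-likelihood test, 2-sided, Benjamini-Hochberg adjustment over all tested genes, threshold 0.05), with KO2 and KO3 summed. The merging was decided from the counts, although the labels and methods describe separate mice. P-values measure the spread between these few samples. SE came from the F statistic of each estimate. The fit was tested on simulated data. Members and gene lists were chosen with earlier results of these data known. All members were named, as were other pathway genes that were called (up to 12, by p) and Rbpj, Adam10, Lfng, Nrarp, Heyl, Hey2, Dlk1 and Hes5 whatever their values; 1 further gene of this rule is not reported here. Alternatives were 17 planned settings and 1 added after the data were seen, among them DESeq2 1.42.0 and an offset from smoothed trends of length and GC content. Floors reflect counting error alone, as duplicate reads may stem from 1 molecule. Lungs taken at ZT10 were not analysed here.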

Additional observations from a re-analysis of the deposited data

How the results depend on the processing

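Of the 10 members, 8 kept their direction over all 18 alternatives. The exceptions were Notch1, at 0.0055 on the log2 scale with the length and GC offset, and Jag1, at -0.0309 with scaling by library size alone, -0.014 without WT1 and -0.107 without the merged KO2 and KO3 sample (0.13 at the highest when 1 sample was left out). Against 426 genes called with KO2 and KO3 as 1 sample, 3402 were called with 6 libraries separate, 2184 when the offset was added to that fit (an alternative chosen after seeing the data), 937 with a stricter filter of 10 counts in each library, 209 with edgeR's exact test, 3875 with DESeq2, 2390 with the squamous covariate and 6 with the length and GC offset. Leaving out WT1, WT2 or WT3 gave 0 calls each (3346 to 4193 genes at an unadjusted p under 0.05). Leaving out KO1 or the merged KO sample leaves 1 KO sample, and calls of those fits are not given. Without the library KO2 or KO3 alone, which leaves every sample in place, 355 and 418 genes were called. Called members numbered 3 with 6 libraries separate, 4 with DESeq2 and 3 with the squamous covariate. They numbered 0 with library size alone, with the offset, and without WT1, WT2 or WT3. Hes1 passed in 12 of the 18 alternatives, among them the fit without KO1, which leaves 1 KO sample. Notch2 passed in 3, Notch3 and Dll4 in 2 each, and the others in 0. Scaling by library size alone moved the median of all genes to -0.04 and left 117 genes higher and 189 lower, compared with 257 and 169.

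The replicate numbers did not pair the samples: deviations from the genotype means correlated at -0.66, 0.69 and -0.78 for the pairs numbered 1, 2 and 3. With the replicate number as a block, the fit of 6 separate libraries called 1157 genes and 1 member, Hes1. The cause of these differences was not tested. With 2 KO samples, small differences could not be resolved.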
